A study of Mus musculus with 6 samples.

Results

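Branched-chain amino acid breakdown and the Musashi-Numb axis were followed through 10 genes in mouse leukaemia cells. The 10 were taken by gene symbol from a table of 53819 genes: Bcat1, Bcat2, Bckdha, Bckdhb, Dbt, Bckdk and Ppm1k for the amino acid pathway, and Msi1, Msi2 and Numb for the axis. Each had a row, and 9 of the 10 passed the filter on low counts that left 15232 genes for testing. Msi1 did not. RNA was sequenced from leukaemia cells sorted from spleens of mice transplanted with primary leukaemia cells that carried BCR-ABL and NUP98-HOXA9, a fusion gene pair that models chronic myeloid leukaemia in blast crisis. There were 3 libraries labelled SLC6A6 KO and 3 labelled SLC6A6 WT, and both groups carried the same pair of fusion genes. Slc6a6 encodes the taurine transporter. The sources used here do not give how the KO was made, its allele, the strain, sex and age of the mice, the sorting marker, or whether each library had its own mouse. The series title names a knock-down. The p-values therefore measure only the spread between these libraries, which may be technical.

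Leucine, isoleucine and valine are first stripped of their amino group by a branched-chain aminotransferase, cytosolic BCAT1 or mitochondrial BCAT2, which passes it to 2-oxoglutarate to give glutamate. The resulting keto acids are then committed to breakdown by the mitochondrial branched-chain keto acid dehydrogenase, which the kinase BCKDK switches off and the phosphatase PPM1K switches on. Musashi proteins bind mRNAs and control their translation. In blast crisis leukaemia MSI2 is known for holding down Numb, an inhibitor of Notch signalling, and for binding the BCAT1 transcript.

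Library totals lay between 42829294 and 44902511 counts in KO and between 44950191 and 49537098 counts in WT. Levels are in CPM, counts per 1000000 counts of a library, scaled between libraries by TMM. Slc6a6 stood at 125, 132 and 133 CPM in the libraries labelled KO, against 151, 145 and 145 CPM in those labelled WT, with an adjusted p of 0.196, and a count per gene cannot show an altered transcript, so it does not check the genotype. Counts of 4 Y-linked genes (Kdm5d, Uty, Eif2s3y and Ddx3y) summed to 10274 to 11236 counts in each KO library and to 0, 0 and 1 in WT, so label and sex-linked expression cannot be told apart. The 10 genes are all autosomal, on chromosomes 3, 5, 6, 7, 9, 11 and 12. A list of 11 leukaemia and progenitor markers, Ptprc, Hoxa9 and Myb among them, summed to 1024 to 1099 CPM in KO and 1016 to 1313 CPM in WT. Within that list Kit rose (75.9, 74.8 and 44.6 CPM in KO, 25.6, 9.90 and 18.1 CPM in WT, edgeR adjusted p = 0.0450). Bcr fell (edgeR adjusted p = 0.0281), and Cd34 had a log2 fold change of −2.38 (edgeR adjusted p = 0.114). Bcr, Abl1, Nup98, Hoxa9, Cd34 and Flt3 had every KO library below every WT library, as 14.4% of all tested genes did. Kit and Myb had every KO library above every WT library, as 13.6% did. Ptprc, Meis1 and Spi1 overlapped. Bcr, Abl1, Nup98 and Hoxa9 share names with parts of the fusion genes, and reads of the fusions were not told apart from those of the mouse genes. Sums over 8 macrophage markers were 103 to 154 CPM in KO and 33.6 to 50.8 CPM in WT. Sums over 8 markers of B and plasma cells were 63.2 to 166 CPM in KO and 5.47 to 43.3 CPM in WT. Those over 9 markers of T and NK cells were 8.21 to 21.7 CPM in KO and 1.50 to 6.93 CPM in WT. These sums were higher in every KO library, and no marker was at 0 in all libraries. Within the lists Adgre1 and Cd68 of macrophages and Klrb1c of NK cells had log2 fold changes of −0.26, −0.20 and −1.84. The other tested markers of these lists had positive ones. Sums over 8 neutrophil markers tended to be lower in KO but overlapped. They were 205, 13.9 and 44.3 CPM in KO1 to KO3 and 740, 139 and 104 CPM in WT1 to WT3. Within that list Cxcr2 and Mmp8 had positive log2 fold changes (3.11 and 0.95) and the other tested markers negative ones, and none was called. Sums over 6 markers of stroma and endothelium also tended to be lower in KO and overlapped. They were 6.64 to 11.3 CPM in KO and 10.3 to 24.5 CPM in WT, with Col3a1 and Cdh5 at 0 in all libraries. Erythroid markers spread widely within both groups, with 24181, 7871 and 27451 CPM in KO1 to KO3 and 2542, 10973 and 6094 CPM in WT1 to WT3. The part of these cells in the results below was not tested, and in sorted bulk cells a smaller share of expressing cells cannot be told from less RNA per cell.

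None of the 9 tested genes passed the test between KO and WT over all genes (edgeR's quasi-likelihood test, Benjamini-Hochberg adjusted p below 0.05). The background for this count is 3.56% of tested genes called in either direction. At an unadjusted p below 0.05 there were 2 of the 9, Bcat1 and Dbt, where the background is 22.0%. In the same 2 genes every KO library lay below every WT library, a pattern that 14.4% of tested genes showed in this direction and 28.0% in either, and in the other 7 the groups overlapped. DESeq2, unlike edgeR, called both of these genes lower in KO, against a background of 14.0% called, and limma-voom called 0 of the 9 at a background of 2.96%. The median log2 fold change, KO over WT, was −0.10 over the 9 genes and 0.01 over all tested genes. The share of truly changed genes that the test can find at this size is limited. Simulated counts for this comparison had 67, 67 and 66 of 15232 genes changed by 1.5-fold, 2-fold and 4-fold. Of these, edgeR found 8.96% of genes with a 1.5-fold change. It found 41.8% of genes with a 2-fold change and 72.7% of those with a 4-fold change. The share found depends on how many genes change, which is not known for the data, so these shares need not hold there. In the same simulated counts DESeq2 made 64 false calls and edgeR 14. The fitted changes of the tested genes other than Bcat1 were all smaller than 1.5-fold.

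**Figure D1:**
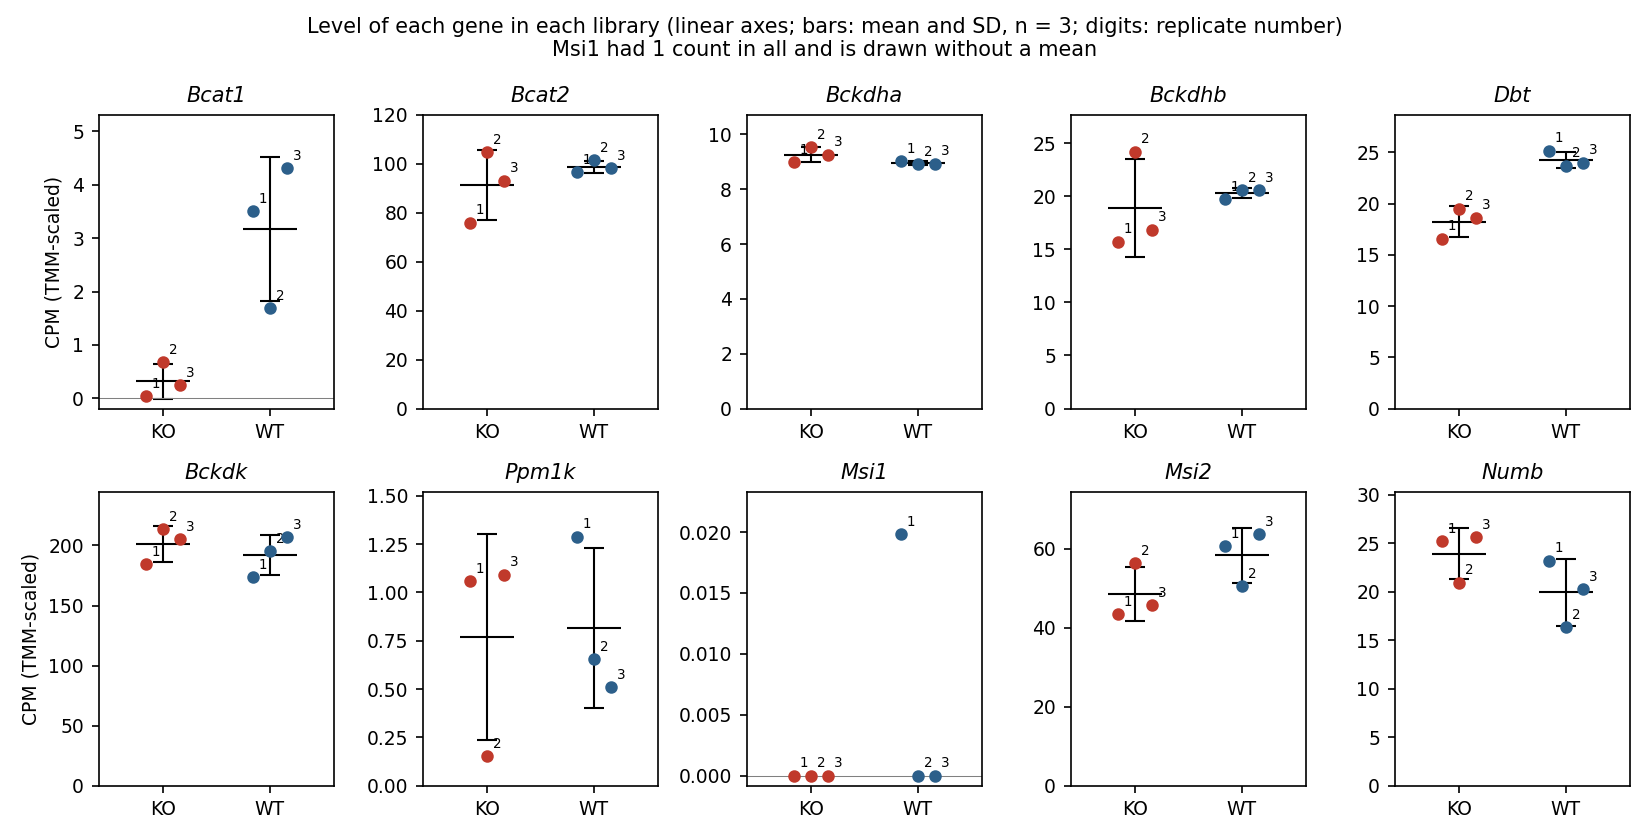
Level of each of the 10 genes in each library, in TMM-scaled CPM on linear axes, with KO at the left and WT at the right of each panel, points for libraries, and bars for the mean and SD (n = 3). Bcat1 and Dbt are the 2 panels in which all KO points lie below all WT points, and Msi1 has a single count in WT1.

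Bcat1, the cytosolic aminotransferase, showed the widest gap of the 9 tested genes. It had 2, 31 and 10 counts in KO1, KO2 and KO3, or 0.0450, 0.675 and 0.242 CPM, against 177, 80 and 195 counts in WT1, WT2 and WT3, or 3.51, 1.69 and 4.31 CPM. The groups did not overlap: the highest KO library, KO2, had an exact 95% counting interval of 0.459 to 0.958 CPM, and the lowest WT library, WT2, one of 1.34 to 2.10 CPM. These intervals cover counting error only, since reads of the same amplified cDNA molecule are counted apart. Spread within the groups also went beyond the counting error of reads. KO1 had an interval of 0.00545 to 0.163 CPM, below that of KO2, and WT3 one of 3.73 to 4.96 CPM, above that of WT2. The error of sampling cDNA molecules can be larger and was not measured. The count of KO1 is under 3, the number of counts taken as the floor of detection.

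The fitted Bcat1 level was 89.8% lower in KO, a log2 fold change of −3.29 ± 0.86 (SE, n = 3 against 3) with a 95% interval from −5.32 to −1.25. That interval is for this gene alone, and after adjustment over all genes edgeR's p was 0.0871. The call turned on the tool and the libraries. DESeq2 gave an adjusted p of 0.00154, and edgeR without KO2 gave 0.0496 with a log2 fold change of −4.46. In the other fits that left out a library the adjusted p lay between 0.122 and 0.237. All 14 alternative fits kept the sign, and over those that left out a library the KO level was 6.84-fold to 22.0-fold below that of WT.

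Start sites of the aminotransferases are shown for reference because the gene counts cannot say which start of Bcat1 was in use, and that of Msi2 because it was the window set in which E-boxes were found. The RefSeq windows (GRCm38.p6, 250 bases before to 50 after a start, gene strand, 5′ to 3′) were available for 8 of the 10 genes. They were searched on both strands for the E-box CACGTG, the site of MYC, for the amino acid response element TGATGCAA and for ACGTG, the core of the hypoxia response element, which also lies inside CACGTG. Capitals mark the matches.
Bcat1, chr6:145076108-145076407, minus strand: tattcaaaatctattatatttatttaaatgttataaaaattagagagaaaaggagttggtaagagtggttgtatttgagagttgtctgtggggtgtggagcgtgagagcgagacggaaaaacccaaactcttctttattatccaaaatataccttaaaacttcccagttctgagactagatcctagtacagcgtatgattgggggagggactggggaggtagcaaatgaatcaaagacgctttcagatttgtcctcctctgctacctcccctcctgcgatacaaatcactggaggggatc
Bcat1, chr6:145048763-145049062, minus strand: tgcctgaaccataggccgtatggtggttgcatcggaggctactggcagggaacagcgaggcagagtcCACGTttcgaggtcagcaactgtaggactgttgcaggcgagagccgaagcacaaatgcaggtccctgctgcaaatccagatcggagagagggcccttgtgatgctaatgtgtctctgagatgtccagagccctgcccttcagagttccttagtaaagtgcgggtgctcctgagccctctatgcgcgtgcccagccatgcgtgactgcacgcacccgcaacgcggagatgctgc
Bcat2, chr7:45569903-45570202, plus strand: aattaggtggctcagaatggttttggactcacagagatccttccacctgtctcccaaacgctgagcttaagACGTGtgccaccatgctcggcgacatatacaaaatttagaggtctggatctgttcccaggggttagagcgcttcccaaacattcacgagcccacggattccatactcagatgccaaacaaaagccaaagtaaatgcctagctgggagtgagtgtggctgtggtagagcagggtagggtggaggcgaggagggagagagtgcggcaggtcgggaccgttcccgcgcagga
Bcat2, chr7:45571029-45571328, plus strand: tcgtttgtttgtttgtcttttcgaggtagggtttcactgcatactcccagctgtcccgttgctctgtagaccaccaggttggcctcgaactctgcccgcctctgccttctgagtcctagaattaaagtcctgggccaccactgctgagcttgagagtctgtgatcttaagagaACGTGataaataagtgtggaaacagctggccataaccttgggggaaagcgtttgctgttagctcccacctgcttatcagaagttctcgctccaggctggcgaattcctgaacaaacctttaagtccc
Msi2, chr11:88718228-88718527, minus strand: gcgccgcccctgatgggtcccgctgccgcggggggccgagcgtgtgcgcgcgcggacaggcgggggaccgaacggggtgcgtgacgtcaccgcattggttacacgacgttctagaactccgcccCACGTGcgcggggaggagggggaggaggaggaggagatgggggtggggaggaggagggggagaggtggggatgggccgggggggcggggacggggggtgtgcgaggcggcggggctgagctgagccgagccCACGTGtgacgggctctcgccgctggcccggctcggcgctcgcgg
Of 32851 such windows over all genes, 7.15% held CACGTG, 0.895% TGATGCAA and 19.6% ACGTG. The upstream Bcat1 window held none of them, and the downstream Bcat1 window and each Bcat2 window held ACGTG once. The Msi2 window held CACGTG at 2 places, and none of the 15 windows of the 8 genes held TGATGCAA.

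Bcat2, the mitochondrial aminotransferase, was the abundant form in both groups. It stood at 76.0, 105 and 93.2 CPM in KO1 to KO3, against 96.7, 101 and 98.3 CPM in WT1 to WT3. The groups overlapped, with KO spread more widely (coefficient of variation 15.8%) than WT (2.48%). The log2 fold change was −0.11, with a 95% interval from −0.40 to 0.18 and an adjusted p of 0.647. Per kilobase of annotated exon, Bcat1 reached 0.000248, 0.00270 and 0.00109 of the Bcat2 level in KO1, KO2 and KO3, and 0.0152, 0.00695 and 0.0183 of it in WT1, WT2 and WT3. The log2 ratio was 3.79 units lower in KO at a mean of −10.1 ± 1.74, against −6.33 ± 0.74 in WT (SD, n = 3 each). Its two-sided exact permutation p was 0.1, the smallest that 3 against 3 libraries allow.

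Of the genes of the dehydrogenase itself, Dbt was separated between KO and WT, and the E1 subunit genes overlapped. Dbt encodes the E2 core, the acyltransferase on which the complex is built. It stood at 16.6, 19.5 and 18.6 CPM in KO1 to KO3, against 25.2, 23.7 and 24.0 CPM in WT1 to WT3. Every KO library was below every WT library. The fitted level was 24.8% lower in KO, a log2 fold change of −0.41 ± 0.13 (SE, n = 3 against 3) with a 95% interval from −0.72 to −0.11. The edgeR adjusted p was 0.128, between 0.119 and 0.316 in the fits without 1 library, while that of DESeq2 was 0.0258.

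Bckdhb, the E1 beta subunit, stood at 15.7, 24.2 and 16.8 CPM in KO1 to KO3, and at 19.7, 20.6 and 20.6 CPM in WT1 to WT3. KO2 was above every WT library and the other KO libraries below them, so the groups overlapped (log2 fold change −0.10, 95% interval −0.55 to 0.35, adjusted p = 0.811). Bckdha, the E1 alpha subunit, was the steadiest of the 9, at 8.98, 9.54 and 9.26 CPM in KO and 9.03, 8.91 and 8.93 CPM in WT (log2 fold change 0.05, 95% interval −0.35 to 0.45, adjusted p = 0.909). In GENCODE M21, 61.7% of its exon bases are shared with B3gnt8 on the opposite strand, and the library chemistry does not mark strand, so the Bckdha level is uncertain. Dld, the E3 subunit shared with other dehydrogenases and named after its value was seen, averaged 203 ± 3.23 CPM in KO and 208 ± 7.47 CPM in WT (SD, n = 3 each, edgeR adjusted p = 0.801).

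The kinase and the phosphatase of the complex differed far more from each other than between groups. Bckdk stood at 185, 214 and 205 CPM in KO1 to KO3, against 174, 195 and 207 CPM in WT1 to WT3. These ranges overlapped, with a log2 fold change of 0.07 (95% interval −0.16 to 0.29) and an adjusted p of 0.734. Ppm1k had 47, 7 and 45 counts in KO, or 1.06, 0.152 and 1.09 CPM, and 65, 31 and 23 counts in WT, or 1.29, 0.653 and 0.508 CPM. KO2 was the low library, with an exact counting interval of 0.0613 to 0.314 CPM against 0.777 to 1.41 CPM in KO1. For Ppm1k the 95% interval of the log2 fold change ran from −1.91 to 1.72 (adjusted p = 0.961).

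Per kilobase, Bckdk was 285, 2285 and 307 times the Ppm1k level in KO1, KO2 and KO3, and 220, 487 and 664 times in WT1, WT2 and WT3. The mean log2 ratio was 9.19 ± 1.70 in KO and 8.69 ± 0.82 in WT (SD, n = 3 each). The difference of 0.50 had a two-sided exact permutation p of 0.8, and without KO2 it was −0.49.

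**Figure D2:**
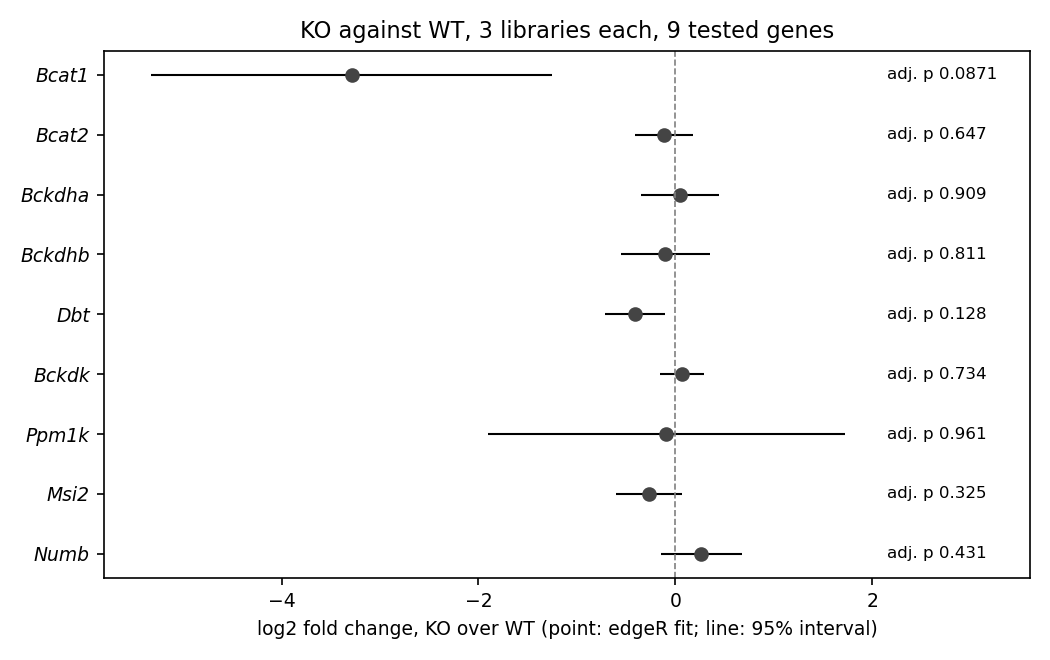
Log2 fold change, KO over WT, of the 9 tested genes in edgeR, with points for the fit, lines for the 95% interval of each gene alone, and the Benjamini-Hochberg adjusted p over 15232 genes at the right. The intervals of Bcat1 and Dbt lie below 0, the Ppm1k interval is wide, and no adjusted p is under 0.05.

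On the Musashi side, Msi2 was the paralogue detected in both groups. Msi2 stood at 43.5, 56.3 and 45.6 CPM in KO1 to KO3, against 60.7, 50.6 and 63.8 CPM in WT1 to WT3. KO1 and KO3 lay below every WT library and KO2 lay above WT2. The log2 fold change was −0.27 ± 0.14 (SE, n = 3 against 3), with a 95% interval from −0.60 to 0.07 and an adjusted p of 0.325. Msi1, the paralogue best known from neural stem cells, had no count in any KO library and 1 count in WT1 alone. Taking 3 counts as the limit that a count of 0 allows, the limit was 0.0653 to 0.0727 CPM in the KO libraries, and the exact 95% counting interval of a count of 0 reached 0.0803 to 0.0894 CPM.

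Numb, which is known as a target of Musashi and an inhibitor of Notch, stood at 25.2, 20.9 and 25.6 CPM in KO1 to KO3, and at 23.2, 16.3 and 20.2 CPM in WT1 to WT3. KO1 and KO3 were above every WT library and KO2 was within the WT range. The log2 fold change of 0.26 ± 0.17 (SE, n = 3 against 3) had a 95% interval from −0.15 to 0.67 and an adjusted p of 0.431. Translation was not measured, so these values concern the Numb transcript alone.

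Ranked by CPM per kilobase of exon, the highest 3 genes had the same order in KO and WT. Bckdk came highest, with 54.5 ± 4.05 in KO and 52.0 ± 4.58 in WT, then Bcat2 (23.4 ± 3.70 and 25.3 ± 0.63) and Bckdhb (10.5 ± 2.56 and 11.3 ± 0.28, SD, n = 3 each), with no overlap between these neighbours in either group. In KO the next 4 were Numb, Dbt, Bckdha and Msi2, from 6.11 to 4.66, and each overlapped its neighbour. In WT Dbt followed at 7.25 ± 0.23, apart from its neighbours, and then Msi2, Numb and Bckdha, from 5.61 to 4.72, overlapped in turn. The place of Bckdha is uncertain in both groups, since 61.7% of its exon bases are shared with B3gnt8. At the low end Ppm1k (0.127 ± 0.09) stood before Bcat1 (0.0344 ± 0.03) in KO, while in WT Bcat1 (0.340 ± 0.14) stood before Ppm1k (0.136 ± 0.07), and the libraries of this pair overlapped in both groups. Among all tested genes with an annotated length, the mean level over the 6 libraries put Bckdk at percentile 91.5, Bcat2 at 82.0, Msi2 at 52.7 and Bcat1 at 9.68.

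Within the KO group the genes tended to share their highest and lowest library. KO2 was the highest KO library in 7 of the 9 tested genes, namely Bcat1, Bcat2, Bckdha, Bckdhb, Dbt, Bckdk and Msi2, and the lowest in Ppm1k and Numb. KO1 was the lowest in the same 7. Over all tested genes KO2 was the highest KO library in 37.4% and KO1 the lowest in 33.9%. KO2 is also the KO library with the lowest erythroid marker sum, and the part of erythroid cells in this was not tested. Among WT libraries WT2 was the lowest in 5 of the 9, Bcat1, Msi2 and Numb among them, and the highest in Bcat2, and over all tested genes WT2 was the lowest WT library in 37.5%.

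Closest to Bcat1 in profile over the 6 libraries were Igfbp7, Pde3b and C7, among 9524 tested genes that averaged 5 CPM or more and have a settled symbol. The root mean square difference of their centred log2 levels (0.1 CPM added) from those of Bcat1 was 0.48, 0.59 and 0.60. Pde3b, a phosphodiesterase, averaged 3.48 ± 1.66 CPM in KO and 53.4 ± 8.90 CPM in WT, and C7, a complement component, 6.52 ± 2.22 and 58.4 ± 24.8 CPM (SD, n = 3 each). Both were lower in KO, at edgeR adjusted p-values of 0.00877 and 0.0165, the second 0.0643 without WT3. Igfbp7, Pde3b and C7 were picked for their likeness to Bcat1 over these same libraries. Their lower level in KO follows from that choice, so their p-values are no separate evidence. Igfbp7 averaged 1.47 ± 0.94 CPM in KO and 10.2 ± 6.23 CPM in WT, with an adjusted p of 0.0767. For Msi2 the nearest were Pxn, Sema4d and Pdlim7, at differences of 0.05 each, and for Numb they were Ptbp2, Avl9 and Foxj3, at 0.05, 0.05 and 0.07. None of those 6 passed the test.

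The list of later steps of branched-chain amino acid breakdown, which also holds the shared subunit Dld, showed no gene past the test. Its 21 genes, from Dld, Ivd and the Mccc genes to Pcca, Pccb and Mmut, were all tested and 0 were called higher or lower, at a background of 3.56%. At an unadjusted p below 0.05 there were 3, where the background is 22.0%. The median log2 fold change was 0.04, against 0.01 over all tested genes. All KO libraries lay below all WT libraries in 2 of the 21 genes and above them in 3, at backgrounds of 14.4% and 13.6%. DESeq2 called 1 of the 21, Hsd17b10, lower in KO, at its background of 14.0%. Hsd17b10, a dehydrogenase of isoleucine breakdown, stood at 122, 139 and 133 CPM in KO and at 168, 162 and 166 CPM in WT, without overlap (log2 fold change −0.33 ± 0.08, edgeR adjusted p = 0.0654). Mcee, the epimerase of methylmalonyl-CoA, averaged 25.9 ± 2.08 CPM in KO and 20.6 ± 0.14 CPM in WT (SD, n = 3 each, edgeR adjusted p = 0.178). Auh, the hydratase of leucine breakdown, averaged 40.4 ± 1.84 and 33.6 ± 3.28 CPM (adjusted p = 0.227 in edgeR). Pccb, a subunit of propionyl-CoA carboxylase, spread from 20.0 to 27.0 CPM in KO and from 22.8 to 52.9 CPM in WT (adjusted p = 0.247).

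Of 7 transporter genes for these amino acids 0 were called in either direction (background 3.56%), with 1 at an unadjusted p below 0.05 (background 22.0%), a median log2 fold change of −0.01 and no call in DESeq2 (background 14.0%). The groups did not overlap in 1 gene with KO below WT, Slc3a2, and in 1 with KO above, Slc6a15. The backgrounds are 14.4% and 13.6%. Slc3a2, the heavy chain of the leucine transporter, stood at 204, 219 and 213 CPM in KO and 226, 258 and 239 CPM in WT (edgeR adjusted p = 0.224). Its partner Slc7a5, named after its value was seen, averaged 325 ± 34.5 CPM in KO and 317 ± 62.1 CPM in WT (SD, n = 3 each, edgeR adjusted p = 0.928). Slc6a15, a sodium-coupled carrier of branched-chain amino acids, measured 8.75, 12.0 and 6.42 CPM in KO and 5.09, 1.05 and 4.66 CPM in WT (edgeR adjusted p = 0.232). Slc43a2 and Slc7a8 averaged 11.9 and 4.87 CPM in KO and 18.2 and 9.53 CPM in WT, and their groups overlapped (adjusted p = 0.239 and 0.275).

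Among 12 genes that handle the glutamate and 2-oxoglutarate of transamination, 0 were called in either direction (background 3.56%), 2 had an unadjusted p below 0.05 (background 22.0%) and the median log2 fold change was 0.06. DESeq2 called 1, Glul, higher in KO (background 14.0%). Glul, glutamine synthetase, stood at 74.3, 43.1 and 70.9 CPM in KO1 to KO3 and at 41.2, 39.9 and 39.7 CPM in WT (log2 fold change 0.64 ± 0.20, edgeR adjusted p = 0.129). KO2 was close to the WT level, and without KO2 the adjusted p was 0.0242. Psat1, an aminotransferase of serine synthesis, averaged 311 ± 26.6 CPM in KO and 383 ± 44.9 CPM in WT (SD, n = 3 each, edgeR adjusted p = 0.170). The groups overlapped for Idh2, a mitochondrial source of 2-oxoglutarate, with an edgeR adjusted p of 0.292.

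**Figure D3:**
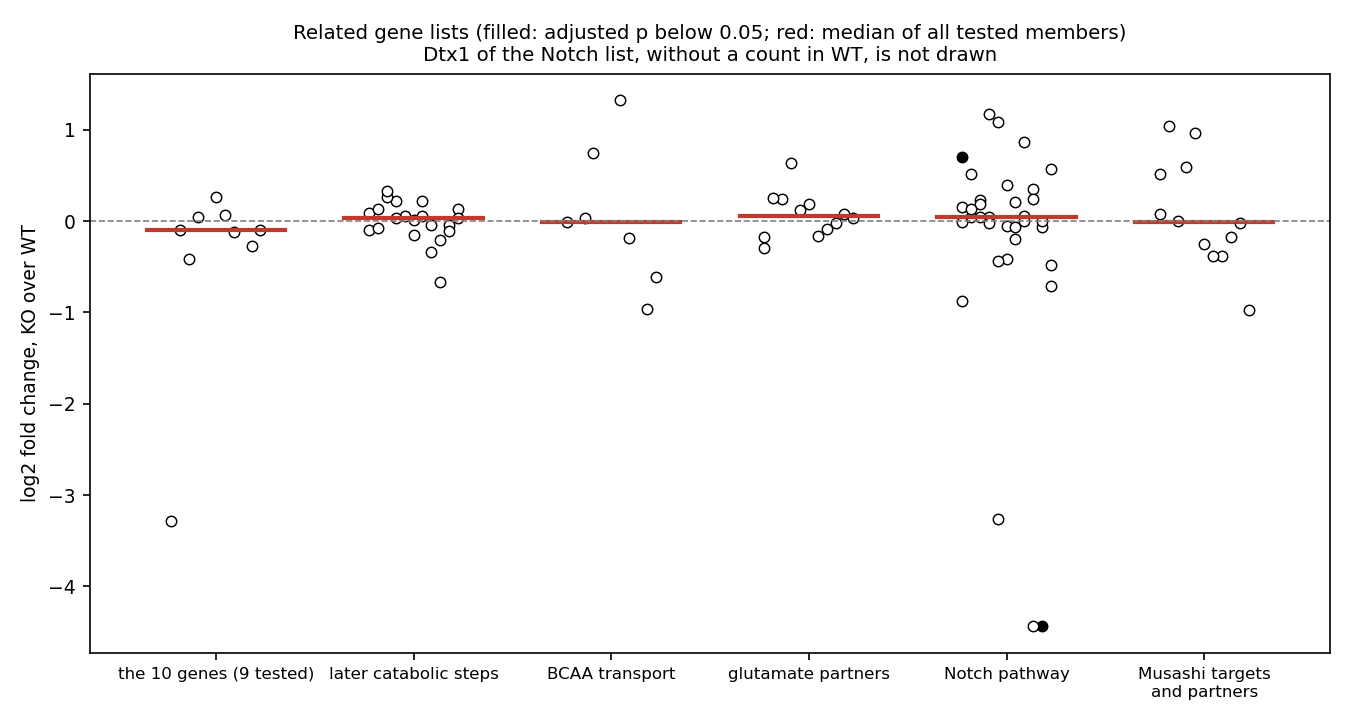
Log2 fold change, KO over WT, of the 9 tested genes and of the members of 5 related lists, with 1 point per tested gene, filled where the adjusted p is below 0.05, and a red line at the list's median. The medians lie between −0.10 and 0.06, and the filled points are Adam10 and Dtx4 of the Notch list, while the called gene Dtx1 is not drawn.

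Around Numb, the Notch list had 41 genes, of which 35 were tested. Adam10 and Dtx1 rose and Dtx4 fell, and 32 did not pass the test. The background is 1.64% of tested genes called higher and 1.92% called lower, and the median log2 fold change was 0.05. At an unadjusted p below 0.05 there were 12 of the 35, where the background is 22.0%. This list too was chosen with earlier results of these data known, so that share is no separate evidence. All KO libraries lay above all WT libraries in 6 genes and below them in 8, at backgrounds of 13.6% and 14.4%. DESeq2 called 4 higher and 4 lower, at its background of 14.0% in either direction. Adam10, the protease that makes the S2 cut in Notch receptors, stood at 484, 525 and 553 CPM in KO, against 324, 328 and 305 CPM in WT, 1.63-fold higher with no overlap (edgeR adjusted p = 0.0111, and 0.0748 without WT3). Dtx4, a ligase of the Deltex family that acts on Notch, stood at 0.383, 1.83 and 2.40 CPM in KO, against 31.8, 27.5 and 40.1 CPM in WT, 95.4% lower. Its edgeR adjusted p was 0.0191, with 0.0502 without KO3 and 0.0850 without WT3.

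Dtx1, another Deltex gene and known as a Notch target in lymphocytes, had 84, 42 and 94 counts in KO and no count in WT. Set against 3 counts over all WT libraries together, or 0.0210 CPM, the pooled KO level of Dtx1 was 79.8-fold higher (edgeR adjusted p = 0.0224). This bound covers the counting of reads only. In a single WT library 3 counts are 0.0594 to 0.0663 CPM, against which the fold would be smaller. Without a count in WT, Dtx1 passed the low-count filter through the KO libraries alone. The filter of at least 1 CPM in 3 libraries removed it. The adjusted p rose above the threshold without KO1 (0.0836), without KO3 (0.0775) and without WT3 (0.0755). The sums of B cell and of T and NK cell markers given above were higher in the KO libraries too, and their part in the Dtx1 values was not tested.

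Named after their values were seen, the Notch receptors and the ligands Jag1 and Jag2 did not pass the edgeR test. DESeq2 called Notch3 higher (adjusted p = 0.0275) and Jag1 lower (adjusted p = 0.00919) in KO, at its background of 14.0%. The ligands Dll1, Dll3 and Dll4 did not pass the filter on low counts and were not tested. Notch2, the most abundant receptor per kilobase, averaged 111 ± 9.55 CPM in KO and 99.5 ± 5.62 CPM in WT (SD, n = 3 each, edgeR adjusted p = 0.401). Notch1 averaged 6.28 ± 1.31 and 2.95 ± 1.91 CPM, Notch3 7.29 ± 1.70 and 3.98 ± 0.59 CPM, and Notch4 0.753 ± 0.23 and 0.333 ± 0.13 CPM. Their edgeR adjusted p-values were 0.292, 0.128 and 0.262. In each, all KO libraries lay above all WT libraries, as they did in 13.6% of all tested genes. Jag1, a ligand, stood at 1.04, 0 and 0.533 CPM in KO and at 5.37, 5.16 and 4.51 CPM in WT, without overlap (edgeR adjusted p = 0.139, and 0.0380 without KO2). Jag2, another ligand, averaged 3.28 ± 1.07 CPM in KO and 6.01 ± 1.70 CPM in WT, also without overlap (edgeR adjusted p = 0.225). In this direction 14.4% of all tested genes were without overlap.

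The list of transcripts reported as targets or partners of Musashi had 15 genes, of which 12 were tested and 0 were called in either direction (background 3.56%). At an unadjusted p below 0.05 there were 9 of the 12, in both directions, where the background is 22.0%. The list was chosen with earlier results of these data known, so that share is no separate evidence. The median log2 fold change was −0.01. All KO libraries lay below all WT libraries in 5 of the 12 genes and above them in 3, at backgrounds of 14.4% and 13.6%. DESeq2 called 3 higher and 4 lower, at its background of 14.0% in either direction. Hoxa9, whose transcript MSI2 is reported to bind and which also forms part of the NUP98-HOXA9 fusion, stood at 101, 97.3 and 108 CPM in KO, against 140, 132 and 129 CPM in WT. No KO library reached the WT range, and edgeR's adjusted p was 0.0502, but 0.0402 with upper quartile scaling, 0.0431 with library totals and 0.0396 where genes had to reach 1 CPM in 3 libraries. Reads of the fusion and of the mouse gene cannot be told apart in these counts.

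Myc, another reported MSI2 target, stood at 293, 368 and 362 CPM in KO, against 415, 461 and 460 CPM in WT (log2 fold change −0.38 ± 0.11, edgeR adjusted p = 0.0954). Ikzf2, a transcription factor of the Ikaros family, stood at 9.25, 8.67 and 7.78 CPM in KO, against 22.6, 13.5 and 14.3 CPM in WT (−0.97 ± 0.24, edgeR adjusted p = 0.0764). In both genes every KO library was below every WT library. Smad3, a mediator of TGF-beta signals, stood at 29.9, 29.6 and 16.4 CPM in KO, against 12.0, 10.5 and 14.3 CPM in WT, again without overlap (1.04 ± 0.26, edgeR adjusted p = 0.0774).

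**Figure D4:**
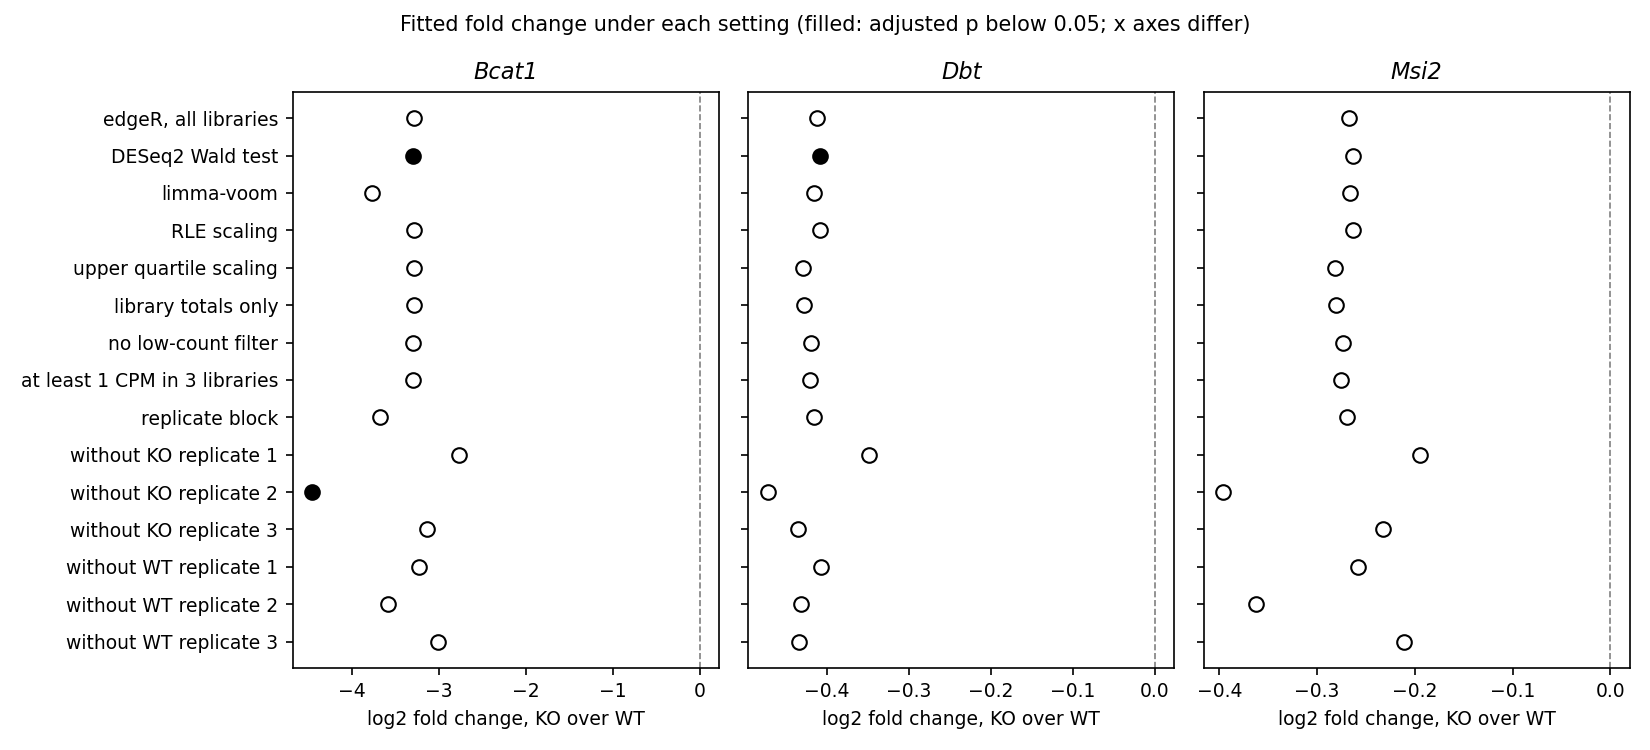
Log2 fold change, KO over WT, of Bcat1, Dbt and Msi2 in the edgeR fit with all libraries and in 14 alternative fits, with filled points where the adjusted p is below 0.05 and different x axes. All points lie below 0, and the filled ones are DESeq2 for Bcat1 and Dbt and the fit without KO2 for Bcat1.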

How the data were processed

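RNA of 6 libraries was sequenced as single-end reads after SMARTer pre-amplification from the poly(A) tail and Nextera XT tagmentation, per the labels' protocols, which record neither strand nor molecular identifiers. The deposited values are raw counts per gene. The authors made them with tools that the submitters' processing notes list as featureCounts, Subread 2.0.1, STAR 2.7.9a and fastp 0.23.1. No source used here gives the build, annotation or treatment of multiply matching reads, so exon lengths and overlaps come from GENCODE M21, matched by symbol.

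Genes were filtered with filterByExpr (minimum count 10, minimum total count 15), scaled by TMM and tested with edgeR 4.0.16 under R 4.3.3 (quasi-likelihood F test, robust, no covariate, Benjamini-Hochberg over 15232 genes, threshold 0.05). Standard errors are the log2 fold change over the square root of F, and the 95% interval uses the test's residual degrees of freedom. DESeq2 1.42.0, limma-voom 3.58.1, other scalings and filters, a replicate block and each library left out were alternatives. In simulated counts of 15232 genes, of which 67, 67 and 66 were changed, edgeR made 14 false calls, DESeq2 64 and limma-voom 6. DESeq2 made the most false calls, which limits all of its calls given here. Same-numbered libraries had deviations correlated at 0.04, −0.28 and −0.09, so the numbers were not taken as pairs. Chi-square per degree of freedom within groups was 35.8 to 127, so no library was a copy. The genes and lists were chosen with earlier results of these data known. All 10 genes are named. Of each list, genes past the test are named, or else up to 4 with the smallest p and a mean of at least 1 CPM. Further genes are said to be named after their values were seen. Some results are not reported here.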

Additional observations from a re-analysis of the deposited data

How the results depend on the processing

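Over 14 alternative fits, 121 of 126 values of the 9 tested genes kept their sign, and 123 stayed above the threshold. Where leaving out 1 library turned a sign, the log2 fold changes ran from −0.23 to 0.0016 for Bcat2 and from −0.33 to 0.016 for Bckdhb (both above 0 without KO1), from −0.020 (without WT1) to 0.13 for Bckdk, from −0.43 to 0.39 for Ppm1k (above 0 without KO2 or WT1), and from −0.14 to 0.11 for Slc7a5 (below 0 without KO3 or WT1). Of the 9, DESeq2 called 2 lower, and the fits without 1 library called 0 to 1 lower.

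Over all genes edgeR called 250 higher and 293 lower, DESeq2 1076 and 925, the replicate block 8 and 20, and the fits without 1 library 13 to 371 higher and 29 to 247 lower. In the later catabolic steps DESeq2 called 1 lower, and among the glutamate partners 1 higher, where fits without 1 library called 0 to 1. In the Notch list DESeq2 called 4 higher and 4 lower, at its background of 14.0% in either direction. The filter of at least 1 CPM in 3 libraries, which removed Dtx1, gave 1 higher, and the replicate block 0 and 0. Fits without 1 library called 0 to 3 higher and 0 to 2 lower. In the Musashi list DESeq2 called 3 higher and 4 lower, fits without 1 library 0 to 1 higher, and upper quartile scaling, library totals and the filter at 1 CPM 1 lower each. The difference in the Bckdk to Ppm1k ratio ran from −0.49 (without KO2) to 1.02, and that in the Bcat1 to Bcat2 ratio from −4.59 to −2.86. Under the replicate block the log2 fold change of Bcat1 was −3.68, with an adjusted p of 0.199, and the Bcat1 to Bcat2 ratio had a sign-flip exact p of 0.25. Except where a fit uses fewer samples or genes, the cause was not tested. Msi1 was too low to be tested, and for Bcat1 and Ppm1k the spread between libraries of a group exceeded the counting error of reads.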
